A study of Mus musculus with 10 samples.

Results

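The miR-23/27/24 paralog clusters are 2 short groups of microRNA (miRNA) genes that each encode a miR-23, a miR-27 and a miR-24 hairpin. The members were chosen by name, as rows of the deposited table for miR-23a-3p, miR-27a-3p and miR-24-2-5p of the a cluster, miR-23b-3p, miR-27b-3p and miR-24-1-5p of the b cluster, and miR-24-3p, which both clusters encode. All 7 were found among the 1340 mature miRNAs of the table, and all 7 had a mean signal of at least 10, as did 588 of the 1340. The tissue was the RPE/choroid/sclera, the layers outside the neural retina (pigment epithelium, choroidal vessels and the fibrous coat), and its small RNA was sequenced. The mice were wild type, of the strain C57BL/6J, and were sampled at postnatal day 34. The 10 libraries are 5 left and 5 right eyes, and a number in the title, 61, 64, 65, 66 or 68, is shared by a left and a right eye. Each animal carried a lens of -20 dioptres over 1 eye from postnatal day 24 for 10 days, a model of myopia, and its other eye had none. The labels used here give the side of an eye but not which side wore the lens, so the groups compared are left and right eyes and neither is called treated. The extraction protocol mentions retinae and the tissue label does not, and here the samples are described by their tissue label.

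A miRNA is cut from a hairpin transcript, and either arm of the stem, 5p or 3p, can be loaded into an Argonaute protein, where bases 2 to 8 (the seed) pair with target mRNAs. The a and b clusters are copies of an ancestral cluster, and their members are known for high levels in endothelial cells and for roles in vessel growth, in the choroid among other tissues. As background, miR-27 is known to repress the adipocyte regulator Pparg, miR-23 the glutaminase mRNA, and miR-24 genes of the cell cycle.

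The mature sequences are shown because the comparison of the paralogs depends on how few bases tell them apart. They are from RefSeq (GRCm38.p6), which matched 6 of the 7 members by name, all but miR-23b-3p. They are written 5′ to 3′ with the seed in capitals.
miR-23a-3p: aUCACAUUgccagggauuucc
miR-27a-3p: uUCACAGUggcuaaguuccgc
miR-27b-3p: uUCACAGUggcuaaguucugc
miR-24-3p: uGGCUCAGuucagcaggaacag
miR-24-2-5p: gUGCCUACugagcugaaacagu
miR-24-1-5p: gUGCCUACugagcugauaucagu
miR-27a-5p: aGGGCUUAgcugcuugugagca
miR-27b-5p: aGAGCUUAgcugauuggugaac

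The 3p arms of miR-27 share the seed and differ by 1 substitution, C19U, counted from the 5′ end with miR-27a first. The 5p arms of miR-24 share the seed and their first 16 bases, end in the same 4 bases and have lengths of 22 and 23 bases. By contrast the 5p arms of miR-27 differ at 8 of 22 positions, the first being G3A in the seed. The 3p arm of miR-24 has 1 sequence at both loci, so its signal belongs to both clusters and cannot be divided between them. The authors' settings for reads that fit more than 1 locus are not given in the sources used here. A part of the signal of the miR-27 3p arms may therefore sit on the wrong paralog. The same may hold for the miR-23 3p arms, which could not be compared without the sequence of miR-23b-3p. Neither was tested.

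The a cluster holds Mir23a, Mir27a and Mir24-2 on the plus strand of chromosome 8 within 404 bases, from 84208518 to 84208921 (GRCm38). In GENCODE M21 Mir23a and Mir27a overlap no other gene, and the last 2 bases of Mir24-2 overlap the start of the long non-coding RNA Gm26532. The b cluster holds Mir23b, Mir27b and Mir24-1 on the plus strand of chromosome 13 within 792 bases, from 63300484 to 63301275. It lies inside 2010111I01Rik, the gene for aminopeptidase O, on the same strand, and inside Fancc, a Fanconi anaemia gene, on the opposite strand. Mir23b is intronic in all 9 transcripts of 2010111I01Rik that span it. Mir27b is intronic in 8 of 9, and falls in an untranslated exon of the other one. Mir24-1 overlaps an exon in 4 of 11 transcripts, with no coding sequence. The table lists miR-24-3p once, at the chromosome 8 copy.

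The summed signal was between 11878152 and 11879036 in the 10 libraries, and the value at a given rank was nearly the same in all of them: at the ranks the members took it differed between libraries by at most 5.91%. A member's signal therefore follows its rank in the library. Read depth is unknown, because the values are not counts. Of 8 marker lists (31 miRNAs) for the cell types that the dissection could hold, all members had a signal above 0 in all 10 libraries. The pigment epithelium list summed to between 1959059 and 1989155 and the endothelial list, miR-126a-3p and miR-126a-5p, to between 198138 and 341646. Most of the pigment epithelium sum was miR-204-5p, held at 1931810 in all 10 libraries, so its narrow range does not show an even content of that cell type. The rest, miR-211-5p, ran from 27249 to 57345. Right eye 68 stood apart, since its retina and neuron list summed to 1330349.7, where the other 9 libraries held between 188960 and 473451. Fewer cells of a type and less of a miRNA per cell cannot be told apart in such bulk samples.

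The level of the members fell in steps from miR-27b-3p down to miR-24-1-5p. The highest was mmu-miR-27b-3p (mmu for mouse), with a normalised signal of 628392 in all 5 left eyes and in right eyes 61, 64, 65 and 66, and of 403594 in right eye 68. It alone made up between 74.2% and 83.2% of the summed signal of the 7 members, which held between 4.58% and 6.74% of the signal of a library. The value is one rank step: miR-27b-3p ranked 7 in 9 libraries and 8 in right eye 68, where the photoreceptor miRNA miR-182-5p ranked 2 and so stood above it, against ranks 8 to 14, below it, elsewhere. From rank 7 the next step up in signal was 1.18-fold and the next step down 1.56-fold.

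**Figure D1:**
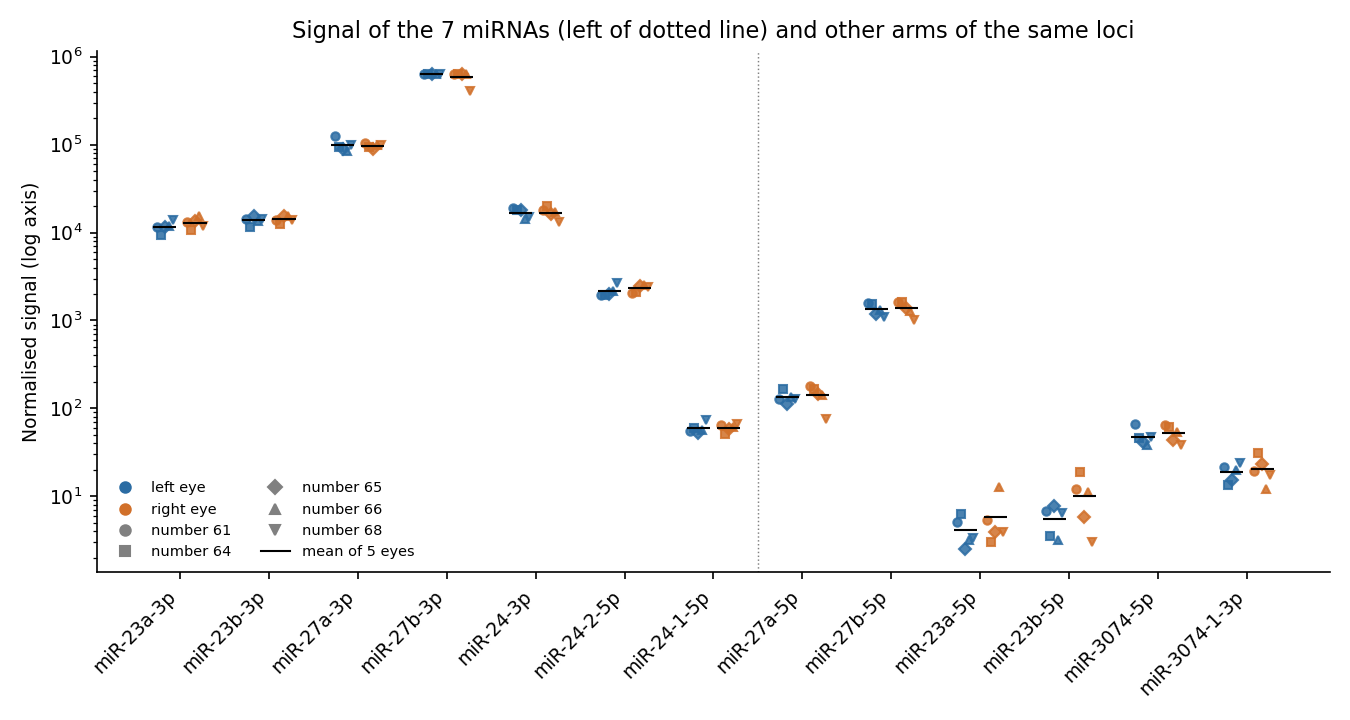
Normalised signal on a log axis of the 7 miRNAs, left of the dotted line, and of the other arms of the same loci, with 1 point per library, colour for the side of the eye, shape for the number in the title and a bar for the mean of 5 eyes. miR-27b-3p stands at 628392 in 9 libraries, and miR-24-1-5p is the lowest of the 7 with 51.5 to 74.0.

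Its paralog mmu-miR-27a-3p was next. Left eyes 61, 64, 65, 66 and 68 had a signal of 125511, 93998.6, 89670.5, 84547.5 and 98506.5, and right eyes in the same order had 104898, 93998.6, 89670.5, 98506.5 and 98506.5. The eyes of number 61 were the 2 highest, and the sides overlapped. The 3p arm of miR-24, mmu-miR-24-3p, followed with 19089, 17925, 17925, 14343 and 14903 in left eyes and 17925, 19988, 16083, 17084 and 13129 in right eyes.

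The 3p arms of miR-23 lay close together and near miR-24-3p. For mmu-miR-23b-3p the signal was 14343, 11521, 15268, 13581 and 14343 in left eyes and 13992, 12667, 15268, 15268 and 13992 in right eyes, in the order of numbers given above. For mmu-miR-23a-3p it was 11521, 9430, 11521, 11952 and 13992 in left eyes and 13129, 10593, 13581, 15268 and 11952 in right eyes. Number 64 had the lowest value of either paralog on both sides.

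Far below stood the 5p arms of miR-24. The a cluster product mmu-miR-24-2-5p had 1929, 1929, 1982, 2188 and 2675 in left eyes and 2059, 2130, 2473, 2537 and 2373 in right eyes. The b cluster product mmu-miR-24-1-5p had 55.2, 59.7, 52.1, 57.5 and 74.0 in left eyes and 64.7, 51.5, 58.3, 61.01 and 66.1 in right eyes. Left eye 68 was the highest library for both.

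Levels of different miRNAs are compared here as signals of mature forms of 21 to 23 bases where the sequence was at hand, with no correction for length or for how well a sequence is captured. In this order the neighbours were separated in all 10 libraries and without overlap of their ranges, except at 2 places. The signal of miR-24-3p was above that of miR-23b-3p in 9 of 10 libraries, all but right eye 68, and their ranges overlapped. That of miR-23b-3p was above miR-23a-3p in 9 of 10 libraries, with equal values of 15268 in right eye 66. Among the 161 highest values of each library such ties occurred 4 times in the 10 libraries.

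**Figure D2:**
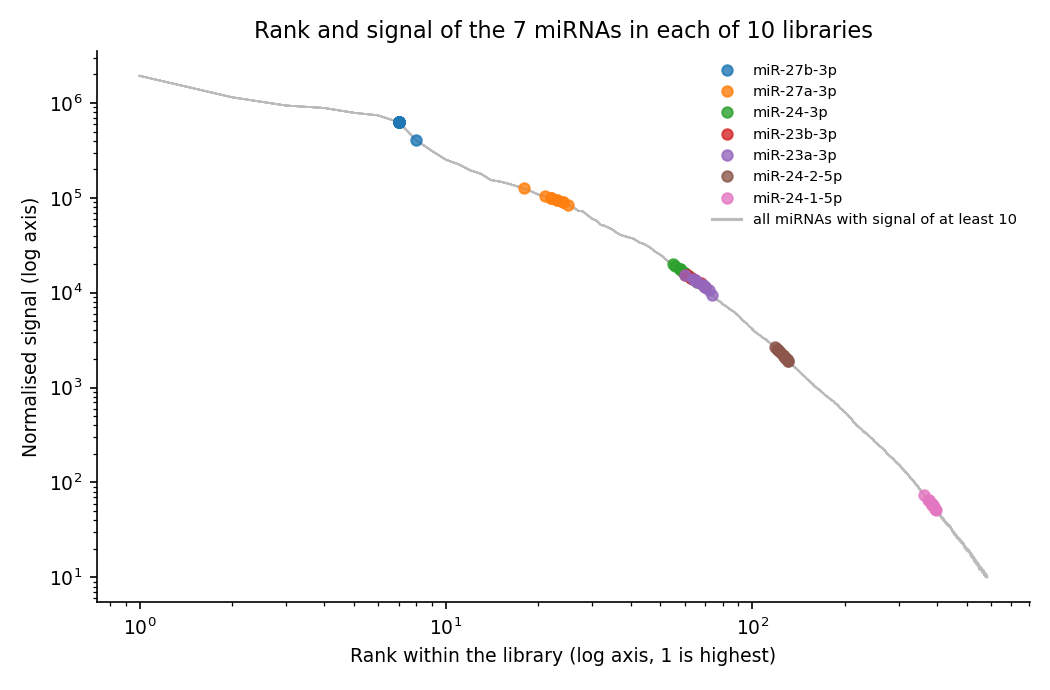
Normalised signal against rank within the library, both on log axes, with the 7 miRNAs as coloured points (10 libraries each) and all miRNAs with a signal of at least 10 as grey lines. The members lie on a common curve of 10 nearly coincident lines, with miR-27b-3p at ranks 7 and 8 and miR-24-1-5p at ranks 363 to 397.

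The comparison of the a and b paralogs gave a different balance for each pair. The b cluster product led by about 6-fold for miR-27 3p, the 2 products were nearly level for miR-23 3p, and the a cluster product led by over 30-fold for the 5p arms of miR-24. Ratios within a library were taken as log2(b + 1) minus log2(a + 1) of the signal, the eyes of a number were averaged, and the mean over the 5 numbers was tested against 0 with an exact two-sided sign-flip permutation. With 5 numbers the exact permutation cannot go below p = 0.0625, so no pair could pass 0.05 by this design.

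For miR-27 3p the signal of the b paralog was 5.01, 6.69, 7.01, 7.43 and 6.38 times that of the a paralog in left eyes 61, 64, 65, 66 and 68. In right eyes it was 5.99, 6.69, 7.01, 6.38 and 4.10 times. The b paralog was higher in 10 of 10 libraries, with a mean log2 ratio of 2.63 ± 0.21 (SD, n = 5 numbers; exact permutation p = 0.0625, adjusted over 5 pairs p = 0.0781). The lowest ratio was in right eye 68, where miR-27b-3p had its lower rank step, and without that library the mean log2 ratio was 2.69. Since miR-27b-3p is held at 1 step in 9 libraries, the differences among those ratios come from miR-27a-3p.

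For miR-23 3p the ratio of b to a was 1.24, 1.22, 1.33, 1.14 and 1.03 in left eyes and 1.07, 1.196, 1.12, 1 and 1.17 in right eyes. The mean log2 ratio was 0.20 ± 0.09 (SD, n = 5 numbers; exact permutation p = 0.0625, adjusted p = 0.0781), with miR-23b-3p holding between 50.0% and 57.0% of the miR-23 3p signal. All 5 numbers had the b paralog higher. The margin was of the size of the spread between libraries, whose log2 SD was 0.20 for miR-23a-3p and 0.13 for miR-23b-3p, and the ranges of the paralogs overlapped.

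For the 5p arms of miR-24 the order was turned around. The signal of miR-24-2-5p was 34.9, 32.3, 38.03, 38.03 and 36.1 times that of miR-24-1-5p in left eyes and 31.8, 41.4, 42.4, 41.6 and 35.9 times in right eyes. The mean log2 ratio of b to a was -5.19 ± 0.11 (SD, n = 5 numbers; exact permutation p = 0.0625, adjusted p = 0.0781). The a cluster thus held between 96.95% and 97.7% of the signal of the miR-24 5p arms in a library. This ratio is of 5p arms only, and it does not tell how miR-24-3p divides between the loci.

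The ratios themselves were compared between pairs, in 3 comparisons. The log2 b to a ratio of miR-27 3p exceeded that of miR-23 3p by 2.43 ± 0.20 (SD, n = 5 numbers) and that of the miR-24 5p arms by 7.82 ± 0.30, while that of miR-23 3p exceeded the miR-24 5p ratio by 5.39 ± 0.14. Each held in 10 of 10 libraries, and each gave the smallest p the exact permutation allows (p = 0.0625, adjusted p = 0.0625). Put another way, miR-27 stood above miR-23 of its own cluster by 43.5 ± 6.67-fold in the b cluster and by 8.09 ± 1.46-fold in the a cluster (SD, n = 10 libraries of 5 numbers).

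**Figure D3:**
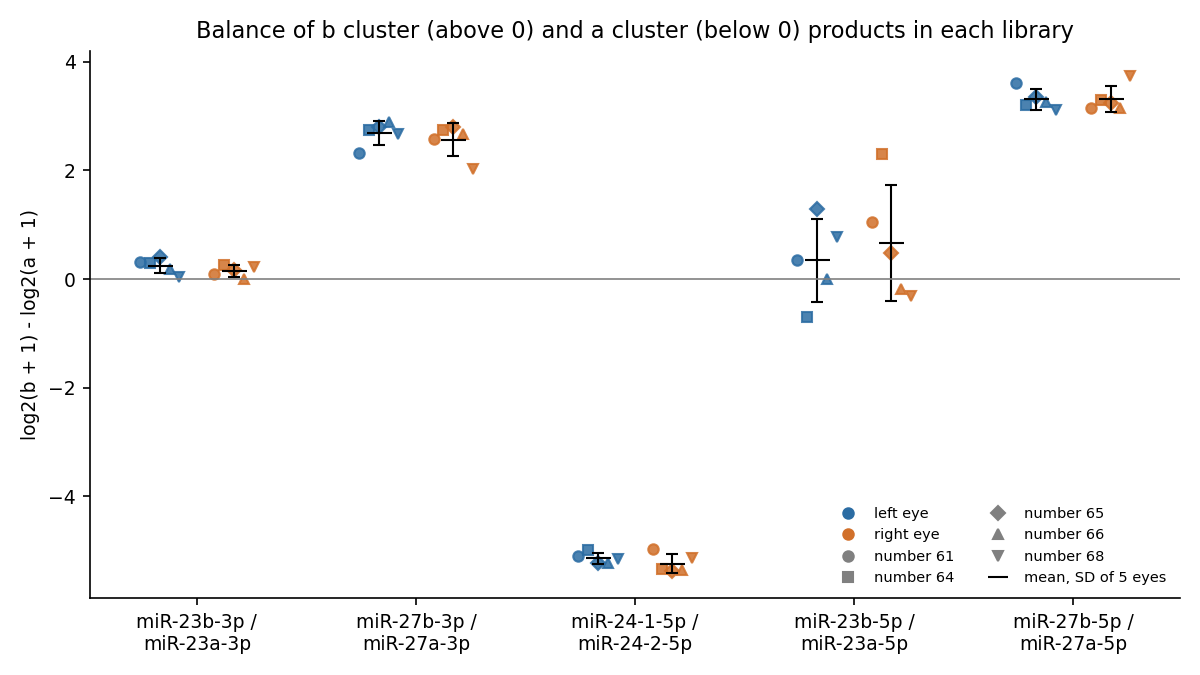
Difference log2(b + 1) minus log2(a + 1) of the signal for 5 pairs of paralogous arms, with 1 point per library, colour for the side, shape for the number, and black bars for the mean and SD of 5 eyes. The miR-27 pairs lie above 2 in all libraries, miR-23 3p lies between 0 and 0.41, and the miR-24 5p pair lies between -5.38 and -4.97.

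The other arms of the hairpins were read beside the members. Of the miR-27 5p arms, miR-27b-5p had 1348 ± 219 on the left and 1385 ± 249.8 on the right side, and miR-27a-5p had 134.7 ± 20.3 and 141.9 ± 40.1 (SD, n = 5 each). Here the b product was again higher in 10 of 10 libraries, with a mean log2 ratio of 3.31 ± 0.09 (SD, n = 5 numbers; exact permutation p = 0.0625, adjusted p = 0.0781). These 5p arms differ at 8 positions, against 1 for the 3p arms. Whether that difference bears on the ratio of the 3p arms was not tested. The 3p arm exceeded the 5p arm by 748 ± 235-fold for miR-27a and 449 ± 66.1-fold for miR-27b (SD, n = 10 libraries).

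The 5p arms of miR-23 were near the bottom of the table, with 2.53 to 12.9 for miR-23a-5p and 3 to 18.8 for miR-23b-5p, below the mean of 10 needed for the tests across miRNAs. The b product was higher in 6 of 10 libraries, lower in 3 and equal in 1 (mean log2 ratio 0.51 ± 0.42, SD, n = 5 numbers; exact permutation p = 0.125, adjusted p = 0.125). No order of the paralogs could be read at this level. In miR-24 the arms were less unequal: miR-24-3p exceeded the sum of the 5p arms by 7.52 ± 1.65-fold (SD, n = 10 libraries).

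Right and left eyes were then compared for each miRNA with limma, fitted on log2(signal + 1) of all 588 miRNAs with the number as a block. None of the 7 members passed an adjusted p of 0.05, and none of all 588 did (0%). At an unadjusted p under 0.05 none of the 7 were found, against 13 of 588 (2.21%), and none had 1 direction in all 5 numbers, against 17 of 588 (2.89%). The median log2 difference of the members, right minus left, was 0.02, as it was over all 588.

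For miR-23a-3p the level was 11683 ± 1622.7 on the left and 12905 ± 1757 on the right side (SD, n = 5 each). Its log2 difference was 0.14 with a 95% interval from -0.08 to 0.37 (adjusted p = 0.967 in limma), with the right eye higher in 4 of 5 numbers. Of the a cluster miR-24-2-5p was also higher in the right eye in 4 of 5 numbers, by 0.12 (-0.10 to 0.33), with number 68 the exception in both. Without right eye 68, and so without that number in the blocked fit, the differences were 0.24 for miR-23a-3p and 0.19 for miR-24-2-5p. Without number 66 that of miR-23a-3p was 0.09, and without 65 that of miR-24-2-5p was 0.07. Of all 588 miRNAs, 87 (14.8%) were higher on the right in at least 4 of 5 numbers. The third member of the a cluster, miR-27a-3p, differed by -0.01 (-0.19 to 0.17), with 3 of 5 numbers tied on a rank step. Of the b cluster miR-23b-3p differed by 0.05 (-0.11 to 0.20), or by 0.02 without 64 or 66, and miR-24-1-5p by 0.02 (-0.29 to 0.33).

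The difference of -0.13 (-0.38 to 0.13) for miR-27b-3p came from number 68 alone, and was 0 without it. For miR-24-3p, whose difference was -0.004 (-0.21 to 0.20), the direction turned without number 61, 65 or 68. It also turned for miR-27a-3p without 61 and for miR-24-1-5p without 61 or 65. The 95% interval lay within 2-fold on both sides of 0 for 7 of the 7 members, as for 497 of 588 (84.5%), and the median half-width of the members was 1.16-fold against 1.30-fold over all 588. The 588 include miRNAs of lower signal than any member. The 2 eyes of a number had the same value in 3 of 5 numbers for miR-27a-3p and in 4 of 5 for miR-27b-3p.

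**Figure D4:**
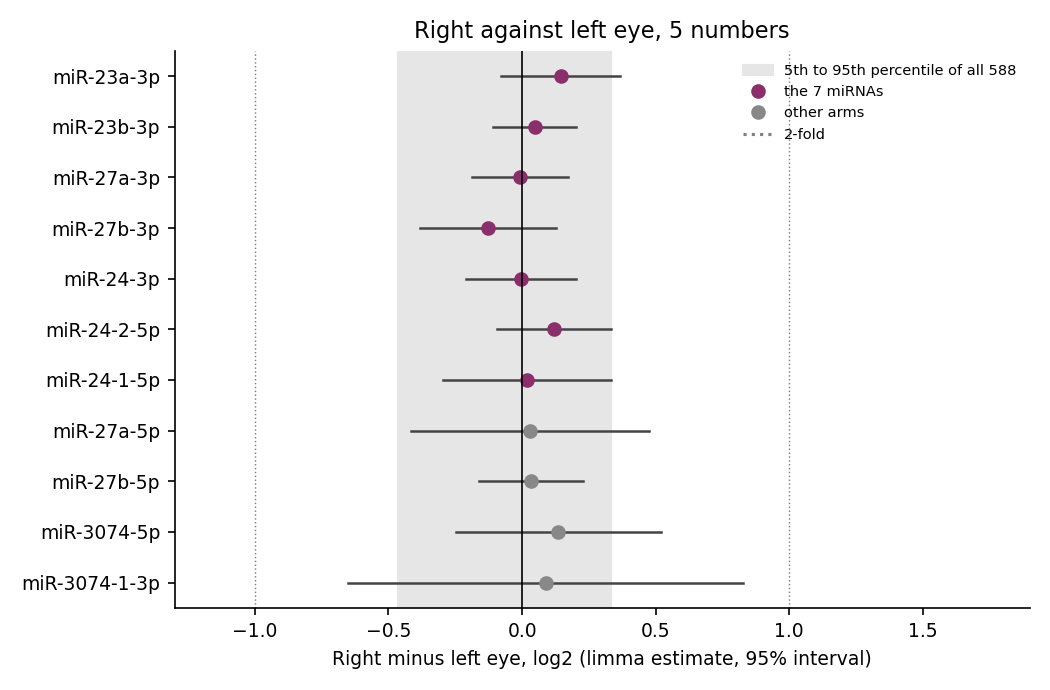
Limma estimates of right minus left eye on the log2(signal + 1) scale with 95% intervals for the 7 miRNAs and the 4 other arms with a mean signal of at least 10, over the range from the 5th to the 95th percentile of all 588 estimates in grey. All 11 intervals include 0 and lie inside the dotted lines at 2-fold.

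The balance of the paralogs was also set side by side for left and right eyes. The exact permutation over 5 numbers has the same lowest p = 0.0625 here and for the sums of each cluster, so no difference of any size could pass 0.05, and the values are given as a description. The log2 b to a ratio of miR-23 3p was 0.25 ± 0.14 on the left and 0.15 ± 0.10 on the right side (SD, n = 5 each) and lower in the right eye in 4 of 5 numbers, a mean difference of -0.10 ± 0.18 (SD, n = 5 numbers; exact permutation p = 0.25, adjusted over 5 pairs p = 0.9375). It was -0.17 without number 68. For miR-27 3p the ratio was 2.69 ± 0.22 on the left and 2.57 ± 0.31 on the right side, with 1 number higher, 2 lower and 2 tied, and the difference of -0.12 became 0.01 without number 68. For the miR-24 5p arms it was -5.14 ± 0.10 on the left and -5.24 ± 0.18 on the right side (exact permutation p = 0.375, adjusted p = 0.9375). The difference of -0.10 ran from -0.16 without number 61 to -0.04 without number 64.

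The sum of miR-23a-3p and miR-27a-3p was 110130 ± 16124 on the left and 110021 ± 6199 on the right side, with a log2 difference of 0.01 that became -0.05 without number 66 (SD, n = 5 each; exact permutation p = 0.75, adjusted over 3 sums p = 0.875). The sum of miR-23b-3p and miR-27b-3p was 642203 ± 1413 on the left and 597670 ± 100676 on the right side (exact permutation p = 0.875, adjusted p = 0.875), a gap that rests on right eye 68 with 417586.

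Whether the members differ between the numbered pairs of eyes was asked with a moderated F-test in the same fit. None of the 7 members passed an adjusted p of 0.05, against 7 of 588 (1.19%), and none had an unadjusted p under 0.05, against 137 of 588 (23.3%). The lowest adjusted p of a member was 0.269 in limma, for miR-24-3p, whose mean over the eyes of a number spanned 0.44 on the log2 scale, where the 2 eyes of a number were at most 0.25 apart. For miR-23a-3p the span was 0.43, with eyes at most 0.35 apart (adjusted p = 0.344 in limma).

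Of the 4 other arms with a mean of at least 10, miR-27b-5p alone had an unadjusted p under 0.05 in this F-test. That is near the share over all miRNAs, 137 of 588 (23.3%). Left and right eye had 1593 and 1618 for number 61, 1555 and 1618 for 64, 1177 and 1387 for 65, 1309 and 1279 for 66, and 1108 and 1025 for 68 (unadjusted p = 0.0127, adjusted p = 0.119 in limma). Numbers 61 and 64 were above the rest on both sides, while miR-27b-3p had 1 value in 9 of the 10 libraries. The log2 SD over the 10 libraries was between 0.13 and 0.20 for the members, below the median of 0.34 over all 588. Of the 588, 4.93% had a lower SD than miR-23b-3p, the lowest member, and 21.1% a lower one than miR-23a-3p, the highest. The 588 include miRNAs of lower signal than any member, and the SD was not compared at like signal.

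**Figure D5:**
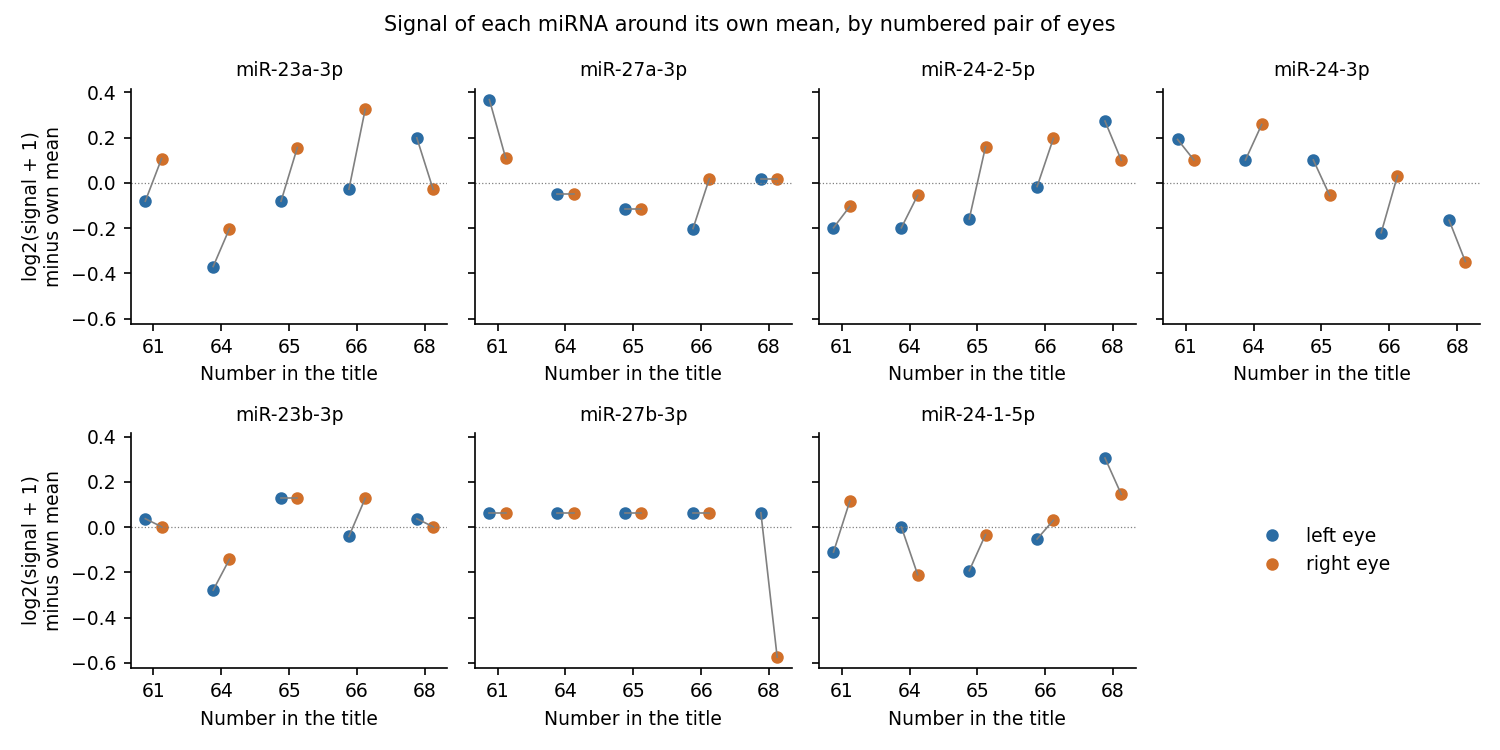
Log2(signal + 1) minus its own mean over 10 libraries for each of the 7 miRNAs, by number in the title, with the left and right eye of a number joined by a line. miR-24-3p lies above its mean in both eyes of numbers 61 and 64, where miR-24-2-5p lies below its mean, and miR-27b-3p departs from a flat line in right eye 68 alone.

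The arms of miR-24 varied in different ways across the numbers. Relative to miR-24-2-5p the signal of miR-24-3p was 9.90, 9.29, 9.04, 6.55 and 5.57 times as high in left eyes 61, 64, 65, 66 and 68 and 8.71, 9.38, 6.504, 6.73 and 5.53 times in right eyes. Both eyes of numbers 61 and 64 were higher than both eyes of 66 and 68, and the eyes of 65 fell on either side. This ratio was singled out after its values were seen, and its difference between numbers was not tested. Marker lists differed between the same libraries. The surface epithelium list summed to between 113015 and 244508 in the eyes of numbers 61 and 64, to 158222 and 76284 in the left and right eye of 65, and to 63774, 25262 and 59865 in left 68, right 66 and right 68, with left 66 apart at 200378. The fibroblast and smooth muscle list ran from 836434 to 852017 in the eyes of 61 and 64. In those of 66 and 68 it ran from 843316 to 1060244. The lower end, 843316, was right eye 68, which had the lowest ratio of the miR-24 arms. Most of that list's sum was miR-143-3p, with 740063 to 939897 across libraries. The endothelial list ran from 198138 to 219305 in the eyes of 61 and 64 and from 214157 to 341646 in those of 66 and 68. For both lists these ranges overlapped. The retina and neuron list was highest in right eye 68 and next in left eye 65, at 473451. The part of these in the ratio of the miR-24 arms was not tested.

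Likeness of profile was measured as the root mean square (RMS) difference between log2(signal + 1) profiles over the 10 libraries, each centred on its own mean, where a small value means a like profile. The 3 profiles nearest to miR-24-3p were miR-328-3p at 0.08, miR-1843b-5p at 0.08 and miR-146a-5p at 0.09. Its own 5p arms were much farther, at 0.31 for miR-24-2-5p and 0.30 for miR-24-1-5p, places 232 and 219 of the 587 other miRNAs, and farther than a flat line at 0.18.

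The paralogs miR-23a-3p and miR-23b-3p were at 0.12 from each other. A flat line was at 0.19 from miR-23a-3p and, like the paralog, at 0.12 from miR-23b-3p. Seen from miR-23a-3p, miR-23b-3p was the 9th nearest, after miR-199a-3p, miR-142a-3p and miR-322-5p as the first 3, all at 0.11. Seen from miR-23b-3p, miR-23a-3p was the 14th nearest. The 3 nearest to miR-23b-3p were miR-125a-5p at 0.08, miR-199a-3p at 0.09 and miR-214-5p at 0.09. Of the cluster partners of miR-23a-3p, miR-24-2-5p was about as near as the paralog, at 0.12 and place 10, and miR-27a-3p was at 0.24 and place 130. Of those of miR-23b-3p, miR-24-1-5p was at 0.19 and place 92, and miR-27b-3p at 0.23 and place 142.

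For miR-27a-3p the nearest profiles were miR-125b-5p at 0.11, miR-100-5p at 0.13 and miR-125b-2-3p at 0.13. For miR-27b-3p, whose profile is flat but for right eye 68, they were miR-145a-5p at 0.10, miR-139-5p at 0.11 and miR-1933-3p at 0.11. For miR-24-2-5p they were miR-140-3p, miR-411-5p and let-7g-5p, each at 0.08, and for miR-24-1-5p miR-410-3p at 0.09, miR-186-5p at 0.09 and miR-411-5p at 0.10. These distances describe 10 libraries from 5 numbers that share the rank steps, and they carry no test.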

How the data were processed

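The deposited table gives a normalised signal per mature miRNA and library. Per the submitters' processing notes, the authors worked with Partek and Bowtie on GRCm38, also called mm10; versions are not named there. How the values were normalised is not given in these sources. In the deposited signal the ranks of a library carry nearly the same value in all libraries, so count models were not used. The table's start positions matched RefSeq for 1133 miRNAs, and its stop positions lie 1 base past the RefSeq end, so RefSeq positions are printed.

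Right and left eyes were compared by limma 3.58.1 in R 4.3.3 on log2(signal + 1), over the 588 miRNAs with a mean of at least 10, with a trend of variance on mean, number as the block and p-values (two-sided) adjusted after Benjamini-Hochberg at 0.05. The fit was tested on simulated data with independent normal noise and planted effects larger than the differences of the members. The simulated data had no shared rank steps, so that test does not cover this feature of the deposited signal. Paralog ratios and sums were tested by exact sign-flip permutation over the 5 numbers in Python 3.11.15. The block follows the protocol, which compares the eyes of an animal. Across miRNAs, the left and right deviations of numbers 61 to 68 from the means of their sides correlated at 0.12, 0.447, 0.0128, -0.133 and 0.285, and 3 of the 5 values exceeded 0.1, so the pairing by number is not established by these data. The limma p-values weigh a difference against the spread between these samples, moderated across miRNAs. Those of the exact permutation over 5 numbers cannot go below 0.0625.

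The members, lists and tests were chosen with earlier results of these data known. All 7 members, the other arms and neighbours of their hairpins, miR-128-3p and the 3 nearest profiles of each member are named. Pseudocounts of 0.5 and 10, no filter and a mean of at least 100, no trend, ranks, no block and leaving out numbers or right eye 68 were tried. For the paralog ratios the fit without right eye 68 was chosen after seeing the data.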

Additional observations from a re-analysis of the deposited data

Results flagged for a closer look

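Of 30 checks for a single eye standing apart within its side, 4 found one, and in all 4 it was right eye 68. Chance gives about 1 in 20 for independent and continuous values, while these share miR-27b-3p or a library. As miR-27b-3p took only 2 values, that rate does not apply to it or to the sums below that carry its step. The signal of miR-27b-3p was 403594 there against 628392 in the other right eyes, a step of 1 rank. The sum of miR-23b-3p and miR-27b-3p was 417586 and the sum of the 7 members 543613, both lowered by the same step. The log2 b to a ratio of the miR-27 5p arms was 3.75 in that eye against 3.16 to 3.29 in the other right eyes, with miR-27a-5p at 75.4, its lowest value, and miR-27b-5p at 1025, its lowest as well. Among left eyes this ratio ran from 3.11 to 3.62, with the highest in left eye 61. Right eye 68 also had the highest retina and neuron sum, 1330349.7. Of that list, miR-182-5p ranked above miR-27b-3p in this eye and below it in the other 9 libraries. The part of the retina and neuron signal in these values was not tested.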

How the results depend on the processing

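No member was called, between sides or between numbers, under any alternative run. Over all miRNAs tested the count between numbers was 7 of 588, 23 of a smaller set with a mean of at least 100, which leaves out miR-24-1-5p, and 0 without trend, with ranks or without right eye 68, and ran from 0 to 22 when numbers were left out. The b to a ratios and their differences between pairs kept their direction with the other pseudocounts, with each number left out and without right eye 68, and the ratios also within either side; ranks, filters and trend were not varied for them. With a number left out, ratios ran from 0.18 to 0.22 for miR-23 3p, 2.58 to 2.70 for miR-27 3p and -5.23 to -5.16 for miR-24 5p. Directions of some right minus left values turned with a number left out. These values ran from -0.065 to 0.055 for miR-27a-3p, -0.032 to 0.077 for miR-24-1-5p and -0.068 to 0.041 for miR-24-3p, which was also 0.041 without right eye 68. The ratio differences ran from -0.21 to 0.0096 for miR-27 3p, -0.34 to 0.68 for miR-23 5p and -0.15 to 0.12 for miR-27 5p, and the sums from -0.049 to 0.064 (a), -0.16 to 0.0014 (b) and -0.13 to 0.0036 (all 7). With no replicate block 0 of 7 members were called, and the paired and unpaired differences have the same size by construction (-0.12 for miR-27 3p, -0.10 for miR-23 3p). With 4 numbers the smallest exact permutation p is 0.125.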

Other observations

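The strand opposite the miR-24 hairpins carries annotated miRNAs of its own. One of them, miR-3074-5p, overlaps miR-24-3p by 20 bases at both loci. It had 47.8 ± 10.8 on the left and 52.6 ± 10.99 on the right side (SD, n = 5 each), and miR-24-3p exceeded it by 342 ± 47.5-fold (SD, n = 10 libraries). Of the other antisense products, miR-3074-1-3p of the chromosome 13 locus had 11.99 to 30.9. The deposited signal had no entry named miR-3074-2-3p, the product of chromosome 8.

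The neuronal miR-128-3p begins with the second base of miR-27 and shares 8 bases in a row with it.
miR-27b-3p: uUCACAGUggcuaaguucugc
miR-128-3p: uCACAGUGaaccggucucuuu
It had 985 ± 93.3 on the left and 913 ± 259.7 on the right side (SD, n = 5 each), with 1335 in right eye 68 as the highest and 678 in right eye 61 as the lowest value. The log2 difference, right minus left, was -0.15 with a 95% interval from -0.52 to 0.23 (adjusted p = 0.967 in limma), with the right eye lower in 4 of 5 numbers.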
